A study of Mus musculus with 4 samples.

Results

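The receptors described here are Flt3 and Kit, the tyrosine kinase receptors by which lymphoid-primed multipotent progenitors (LMPPs) are sorted, and the lymphoid cytokine receptor genes Il7r, Il2rg, Crlf2, Il4ra and Il21r. They were followed through every probe set whose only annotated gene symbol is one of these 7 names. The rule found 10 probe sets for 6 of the 7 genes, out of 45037 probe sets and 18193 genes with a probe set in all. Flt3, Crlf2 and Il21r had 1 probe set each, Kit and Il7r had 2 each and Il4ra had 3. Il2rg was not analysed here. The samples were LMPPs from bone marrow of C57Bl/6 mice aged 6 to 8 weeks, 2 labelled Lyl1-null and 2 wild type, each on its own array. The cells were sorted as lineage-negative, Sca-1-positive, c-Kit-positive cells with high surface Flt3. Lyl1 is a transcription factor of the basic helix-loop-helix family, active in blood progenitors. The labels refer to a publication for the knockout allele, and which part of the gene it removes they do not state. Nothing says that the samples within a group are from different mice, so the p-values reflect the spread between these arrays alone. In wild type that spread may be technical. Between the 2 libraries labelled Lyl1-null it also holds the differences in Lyl1, Xist and Eif2s3y given below, so it is not technical alone.

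Flt3 and Kit are receptors of the same tyrosine kinase class. Flt3 binds Flt3 ligand and supports early lymphoid and dendritic development, and Kit binds stem cell factor and supports stem and early progenitor cells. Il7r encodes the interleukin-7 receptor alpha chain. It pairs with the common gamma chain, encoded by Il2rg, to bind interleukin-7, and with Crlf2 to bind thymic stromal lymphopoietin. Il4ra and Il21r encode the ligand-binding chains for interleukin-4 and interleukin-21, which also use the common gamma chain. These cytokine receptors signal through JAK kinases and STAT factors, and interleukin-7 signalling is needed for early B and T cell development in mice.

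Values are on the log2 scale after RMA, a method that corrects background, equalises the arrays and summarises each probe set. As deposited, the arrays still differed in spread. The SD over all probe sets was 2.44 and 2.34 in replicates 1 and 2 labelled Lyl1-null, against 2.48 and 2.47 in wild type. Lyl1 checks the labels. It read 5.14 and 10.32 in replicates 1 and 2 labelled Lyl1-null, against 12.34 and 12.29 in the wild-type libraries. Replicate 2 thus held 25.1% of the wild-type mean, which goes against its label, and it also stood apart in Xist, which silences an X chromosome in females (14.26, against 5.81 to 6.30 in the other 3 libraries). The Y-linked Eif2s3y read 8.44 there and 10.07 to 10.15 in the other 3. Between 518 and 859 of 11196 tested genes differed at least 2-fold between that library and any other, and 42 to 128 did so among the other 3. The receptor genes are therefore described with both libraries and with each library labelled Lyl1-null alone. Of the genes listed as gating or defining LMPPs, Flt3, Kit, Cd34, Cd48 and Dntt lay above the expression filter (a mean log2 value of 5.69) in every library, and Ly6a was not analysed here.

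Lyl1 acts with E proteins at E-boxes, sites of the letters CANNTG. To show where such letters stand at the 3 receptor genes with the largest differences on each gene's brightest probe set, the 250 bases before the start of each are printed below with E-boxes in capitals, 5′ to 3′ on the gene's strand, from RefSeq on GRCm38.p6. Flt3 is on the minus strand (chr5:147400490-147400739), Kit on the plus strand (chr5:75574737-75574986) and Il7r on the minus strand (chr15:9529877-9530126).
Flt3: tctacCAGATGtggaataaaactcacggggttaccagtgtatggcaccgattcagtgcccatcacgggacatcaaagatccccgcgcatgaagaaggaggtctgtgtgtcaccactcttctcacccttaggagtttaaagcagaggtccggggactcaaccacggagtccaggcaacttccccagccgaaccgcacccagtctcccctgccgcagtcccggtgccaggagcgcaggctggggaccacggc
Kit: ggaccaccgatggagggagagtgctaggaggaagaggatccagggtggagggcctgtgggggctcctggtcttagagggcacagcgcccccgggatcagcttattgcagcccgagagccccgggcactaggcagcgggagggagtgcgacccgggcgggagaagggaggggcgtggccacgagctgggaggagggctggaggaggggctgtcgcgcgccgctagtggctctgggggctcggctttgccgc
Il7r: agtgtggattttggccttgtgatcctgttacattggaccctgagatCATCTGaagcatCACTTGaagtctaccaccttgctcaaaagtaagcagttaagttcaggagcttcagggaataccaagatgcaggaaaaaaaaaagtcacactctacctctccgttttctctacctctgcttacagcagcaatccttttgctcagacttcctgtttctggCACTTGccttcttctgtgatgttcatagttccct
The Flt3 window held 1 E-box, at position −245 from the start, the Il7r window held 3, at −204, −192 and −34, and the Kit window held none. Among 32851 windows of the same length before RefSeq starts, 66.2% held at least 1 E-box. GATA, searched on both strands, was in none of these 3 windows and in 53.6% of all. GGAA, the core of ETS factor sites and also searched on both strands, stood 2, 1 and 4 times in the Flt3, Kit and Il7r windows and in 93.4% of all. E-boxes overlapped neither of the other motifs in these 3 windows. A match is a run of letters and not a shown binding site, and no match says only that the letters are not in this window.

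The stem cell factor receptor gene Kit had the largest difference of the 6 genes, each read from its brightest probe set, and was lower in both libraries labelled Lyl1-null. Its bright probe set (1452514_a_at) read 9.56 and 8.97 in replicates 1 and 2 labelled Lyl1-null, against 10.07 and 10.27 in the wild-type libraries. The groups did not overlap, and replicate 2 was the lowest of the 4. The mean difference, labelled Lyl1-null minus wild type, was −0.90 (SE 0.24, 95% interval −1.51 to −0.30), or 1.87-fold lower. It did not pass over all genes in limma (adjusted p = 0.644). Replicate 1 alone lay 0.61 below the wild-type mean (adjusted p = 0.485), and 1.83% of tested genes lay at least as far below in that library. Replicate 2 alone was at −1.20 and passed (adjusted p = 0.0133), where 2.47% of genes lay at least as far below.

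The other Kit probe set (1415900_a_at) was dim, at 4.96 and 4.64 in the libraries labelled Lyl1-null and 4.66 and 4.94 in wild type. It lay below the filter in every library, was not tested, and its groups overlapped. Averaging both Kit probe sets gave a difference of −0.45.

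Flt3, the receptor whose high surface level defines the gate, was lower mainly in replicate 2 labelled Lyl1-null. Its probe set (1419538_at) read 11.80 and 11.26 in replicates 1 and 2 labelled Lyl1-null, against 11.92 and 12.12 in wild type. The groups did not overlap, but replicate 1 lay closer to wild-type replicate 1 than the wild-type libraries lay to each other. The mean difference was −0.49 (SE 0.23, 95% interval −1.07 to 0.094), or 1.40-fold lower, with an adjusted p of 0.644. Replicate 1 alone was at −0.22 (adjusted p = 0.868), and 17.9% of tested genes lay at least as far below. Replicate 2 alone was at −0.76 and passed (adjusted p = 0.0381), with 8.56% of genes at least as far below. In bulk samples, fewer cells of a type and less RNA per cell cannot be told apart, and Kit and Flt3 protein was also what both groups were sorted on.

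The rest of the LMPP list was read beside Kit and Flt3. Its other tested genes, named after their values were seen, were Cd48, Cd34 and Dntt. Cd48, a surface protein of the signalling lymphocyte activation family, read 8.35 and 8.00 in replicates 1 and 2 labelled Lyl1-null, against 9.13 and 9.28 in wild type, a difference of −1.03 (SE 0.19, adjusted p = 0.506 in limma). Cd34, a progenitor surface protein, read 12.59 and 11.92 in the libraries labelled Lyl1-null, against 12.76 and 12.87 in wild type (−0.56, SE 0.25, adjusted p = 0.644). Dntt, the terminal transferase gene, overlapped between the groups (−0.059, SE 0.17), while Cd48 and Cd34 were lower in both libraries, as were 24.0% of all tested genes. The summed linear level of the list, Kit and Flt3 included, was 30182 and 23693 in replicates 1 and 2 labelled Lyl1-null, against 30875 and 32720 in wild type. Dntt, the brightest member, weighs most in that sum, and in replicate 1 it was at 0.052 relative to the wild-type mean. Cd48, Kit, Cd34 and Flt3 were at −0.86, −0.61, −0.23 and −0.22 there. For stem cell genes the sums were 3951 and 4811 against 5646 and 4757, for erythroid and megakaryocyte genes 1193 and 1166 against 1642 and 1153, and for mast cell, basophil and eosinophil genes 582 and 647 against 714 and 577. Tested members of these 3 lists went both ways, which a sum hides. Negative and positive differences numbered 2 and 1 for stem cell genes and 5 and 1 for erythroid and megakaryocyte genes. They numbered 2 and 2 for mast cell, basophil and eosinophil genes. The part of such differences in the Kit and Flt3 values was not tested.

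**Figure D1:**
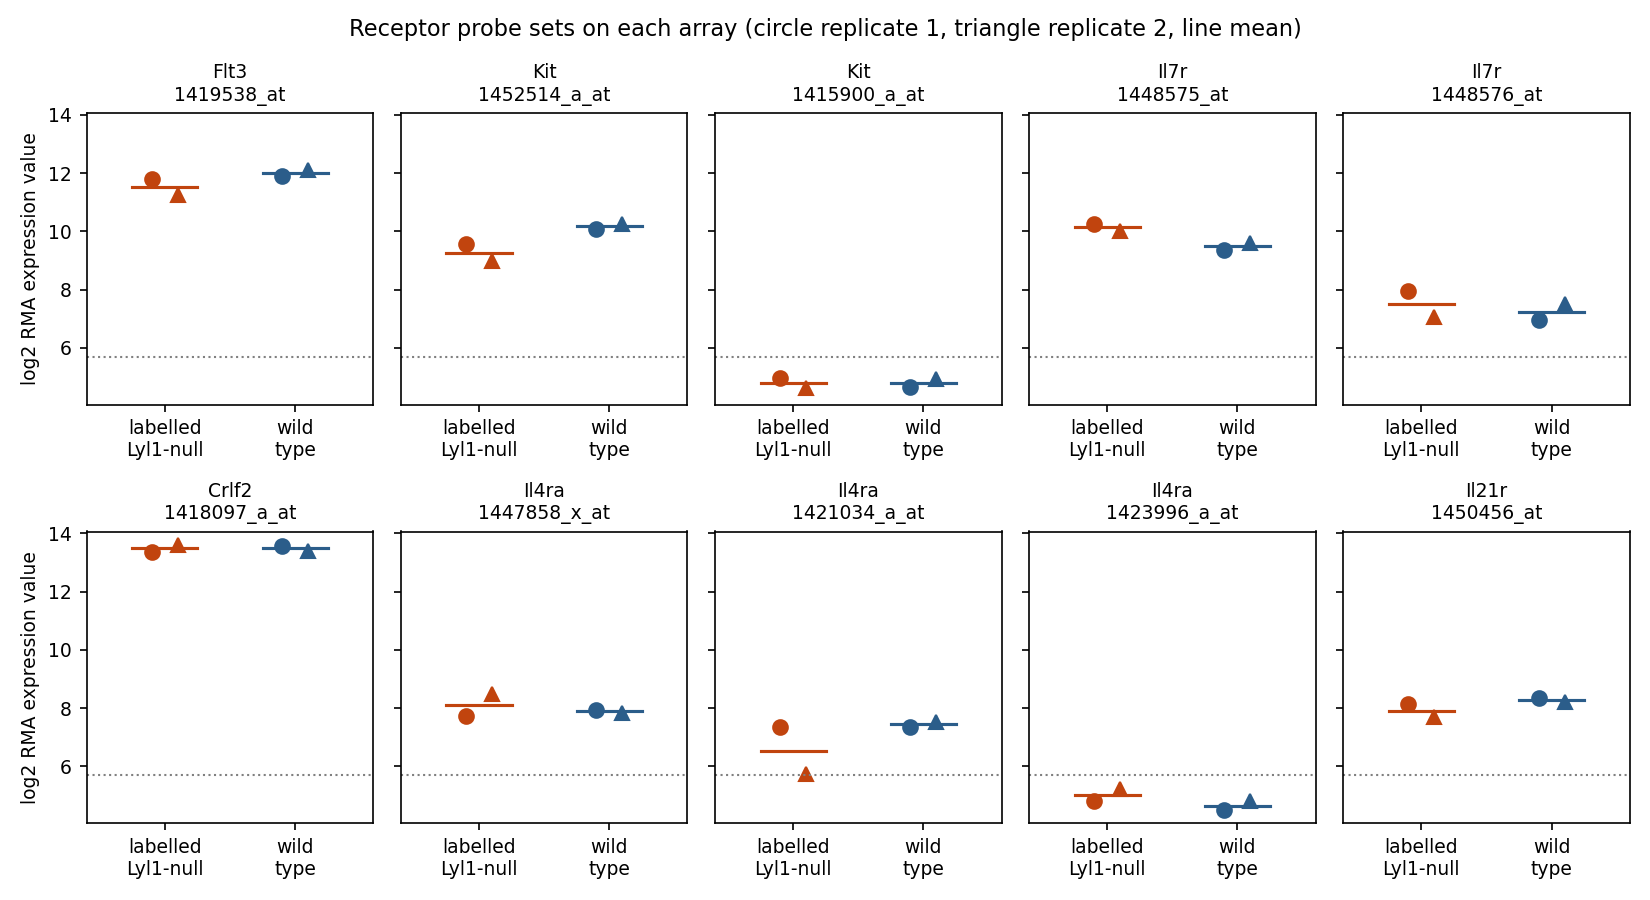
Log2 RMA value of each of the 10 receptor probe sets (y axis) in the libraries labelled Lyl1-null and wild type (x axis). Circles are replicate 1, triangles replicate 2, lines the group means (n = 2 each) and the dotted line the filter of 5.69. Kit 1452514_a_at is lower and Il7r 1448575_at higher in both libraries labelled Lyl1-null, while Il4ra 1421034_a_at is low in replicate 2 only. Levels of different probe sets are not comparable.

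Il7r was higher in both libraries labelled Lyl1-null on its brighter probe set and in 1 of them on the other. The brighter probe set (1448575_at) read 10.25 and 10.03 in replicates 1 and 2 labelled Lyl1-null, against 9.37 and 9.62 in wild type. The groups did not overlap, and replicate 1 was the highest. The mean difference was 0.65 (SE 0.18, 95% interval 0.19 to 1.11), or 1.57-fold higher, with an adjusted p of 0.644. Replicate 1 alone was at 0.76 (adjusted p = 0.372), and 0.491% of tested genes lay at least as far above in that library. Replicate 2 alone was at 0.54 (adjusted p = 0.0919), with 8.90% of genes at least as far above.

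The second Il7r probe set (1448576_at) read 7.95 and 7.07 in replicates 1 and 2 labelled Lyl1-null, against 6.95 and 7.52 in wild type. Here the groups overlapped, with replicate 2 between the wild-type libraries. In the fit over 18848 probe sets its difference was 0.27 (SE 0.35, adjusted p = 0.775). Replicate 1 alone was at 0.72 and replicate 2 alone at −0.17. Each taken relative to its own wild-type mean, the Il7r probe sets thus differed by 0.047 in replicate 1 and by 0.71 in replicate 2. Over 4717 genes with at least 2 tested probe sets, the median gap of this kind was 0.22 and 0.50.

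Markers of other cell types, some of which use Il7r, were read beside Il7r. All 4 tested T lineage genes of 8 listed were higher in both libraries labelled Lyl1-null than in both wild-type libraries, as were 18.7% of all tested genes. The T lineage list had a summed linear level of 509 and 511 in the libraries labelled Lyl1-null against 376 and 348 in wild type, and Cd3d, Cd3g and Bcl11b lay below the filter on average. The T cell surface gene Thy1 read 7.37 and 7.05 against 6.02 and 5.80. B lineage genes summed to 2588 and 2208 against 1902 and 1968, with Pax5 and Ms4a1 below the filter in every library. Vpreb1 (0.56) and Cd79b (0.16) were the brightest members, and Cd79b overlapped between the groups. Of the 5 tested members 4 were positive, with Ebf1 at 0.015. The other 1, Igll1, was lower in both libraries labelled Lyl1-null (−0.50). NK and innate lymphoid genes summed to 3486 and 2999 against 2753 and 2640, with Nkg7 by far the brightest member. The 3 tested members had a median difference of −0.53, with Klrd1 (−0.76) and Rora (−0.53) lower in both libraries labelled Lyl1-null and Nkg7 (0.33) higher. Of 6 tested neutrophil genes, 4 were higher in both libraries labelled Lyl1-null, as were 18.7% of all tested genes, and the median difference was 1.56. Ngp, S100a8, Ltf and Camp, genes of neutrophil granules or cytosol, were at 1.997, 1.64, 1.47 and 1.84, with adjusted p-values in limma of 0.191 to 0.440, and Mpo, the myeloperoxidase gene, was at −1.01. With replicate 1 alone Ngp, S100a8 and Ltf passed as higher, where 0.196% of all genes were called. The neutrophil list summed to 4598 and 3235 against 4220 and 5533, with Mpo the brightest member. The marker genes given here with values were named after those values were seen. The part of these markers in the Il7r difference was not tested.

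Crlf2, the chain that joins Il7r in the thymic stromal lymphopoietin receptor, had no difference of 1 direction. Its probe set (1418097_a_at) read 13.37 and 13.61 in replicates 1 and 2 labelled Lyl1-null, against 13.56 and 13.41 in wild type. Both wild-type libraries lay between those labelled Lyl1-null. The mean difference was 0.0079 (SE 0.18, 95% interval −0.43 to 0.45, adjusted p = 0.991), and it was −0.067 with each array centred on its median.

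Il4ra gave opposite answers on its 2 probe sets above the filter, and only in replicate 2 labelled Lyl1-null. The brighter one (1447858_x_at) read 7.72 and 8.50 in replicates 1 and 2 labelled Lyl1-null, against 7.93 and 7.84 in wild type. Its difference was 0.23 (SE 0.28, 95% interval −0.47 to 0.93, adjusted p = 0.764). By the array maker's naming, _x marks a probe set some of whose probes match other transcripts, and _a one that reads several transcripts of 1 gene. The second probe set (1421034_a_at) read 7.35 and 5.73 in replicates 1 and 2 labelled Lyl1-null, against 7.35 and 7.54 in wild type. Its difference was −0.91 (SE 0.51, adjusted p = 0.635), and replicate 2 alone passed at −1.72 (adjusted p = 0.0115).

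Relative to each probe set's own wild-type mean, replicate 2 was at 0.61 and −1.72 on these Il4ra probe sets, a gap of 2.33. Of the 4717 genes, 0.594% had a gap as wide in that library. In replicate 1 the gap was 0.059, and 86.7% had a gap as wide. The third Il4ra probe set (1423996_a_at) was below the filter in every library, at 4.83 and 5.24 in the libraries labelled Lyl1-null against 4.51 and 4.80 in wild type. With the mean of the 3 probe sets the Il4ra difference was −0.10. Of the genes with at least 2 tested probe sets, 47.6% had probe sets of opposite sign over all 4 libraries.

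Il21r, the next protein-coding gene after Il4ra on chromosome 7, was lower in both libraries labelled Lyl1-null by less. Its probe set (1450456_at) read 8.13 and 7.69 in replicates 1 and 2 labelled Lyl1-null, against 8.35 and 8.22 in wild type. The groups did not overlap, and replicate 1 lay closer to wild-type replicate 2 than the wild-type libraries lay to each other. The mean difference was −0.37 (SE 0.21, 95% interval −0.89 to 0.15, adjusted p = 0.644), and −0.22 after quantile normalization. Replicate 2 alone was at −0.59 (adjusted p = 0.0610) and replicate 1 alone at −0.15 (adjusted p = 0.924).

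**Figure D2:**
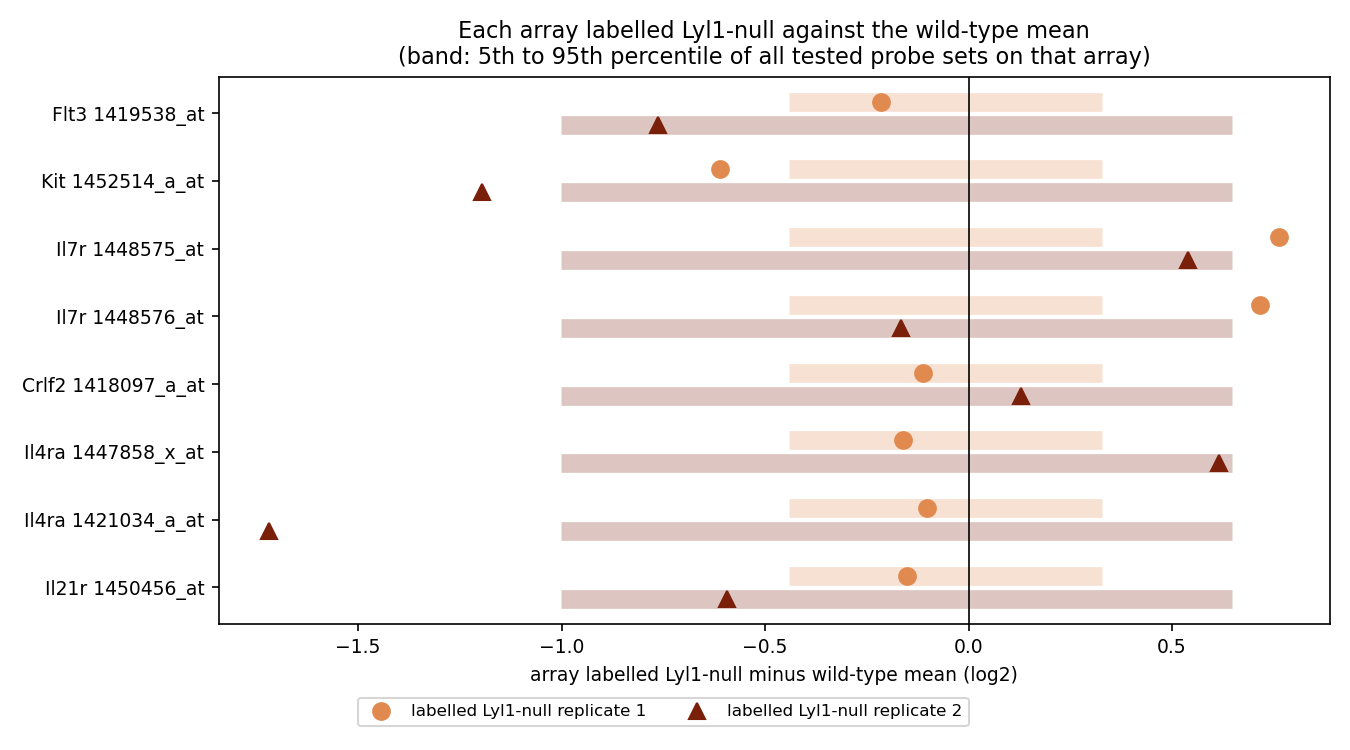
Difference of each library labelled Lyl1-null from the wild-type mean (x axis, log2) for the 8 tested receptor probe sets (y axis), circles for replicate 1 and triangles for replicate 2. Bands run from the 5th to the 95th percentile of all 18848 tested probe sets in that library, −0.44 to 0.33 in replicate 1 and −1.001 to 0.65 in replicate 2. Kit lies below the band in both libraries, and both Il7r probe sets lie above it in replicate 1. Il4ra 1421034_a_at lies below it in replicate 2, at −1.72.

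Counted together, 0 of the 6 receptor genes passed over all genes in limma, where 0.00893% of 11196 genes were called. At an unadjusted p under 0.05 there were 2, Kit and Il7r, beside 766 of all genes. Groups did not overlap in 4 of the 6, with Kit, Flt3 and Il21r lower and Il7r higher, against 42.7% of all tested genes (24.0% lower and 18.7% higher). The median difference was −0.18 over the 6 genes and −0.047 over all tested genes. With replicate 2 alone, 2 of 6 passed, both lower, where 14.8% of all genes were called and 10.8% were lower. With replicate 1 alone, Kit was at −0.61, Flt3 at −0.22, Il4ra at −0.16, Il21r at −0.15, Crlf2 at −0.11 and Il7r at 0.76. The fit with all libraries holds that same array. In the fit over probe sets, 0 of the 8 tested passed, where 0.0106% were called, and Kit and the brighter Il7r probe set had an unadjusted p under 0.05, beside 1304 of all. With replicate 2 alone, 3 of 8 passed, all lower, where 13.0% of probe sets were called and 10.3% were lower. Replicate 2 lay farther from the wild-type mean than replicate 1 in 5 of the 6 genes, with Il7r the exception, and in 74.2% of all tested genes.

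**Figure D3:**
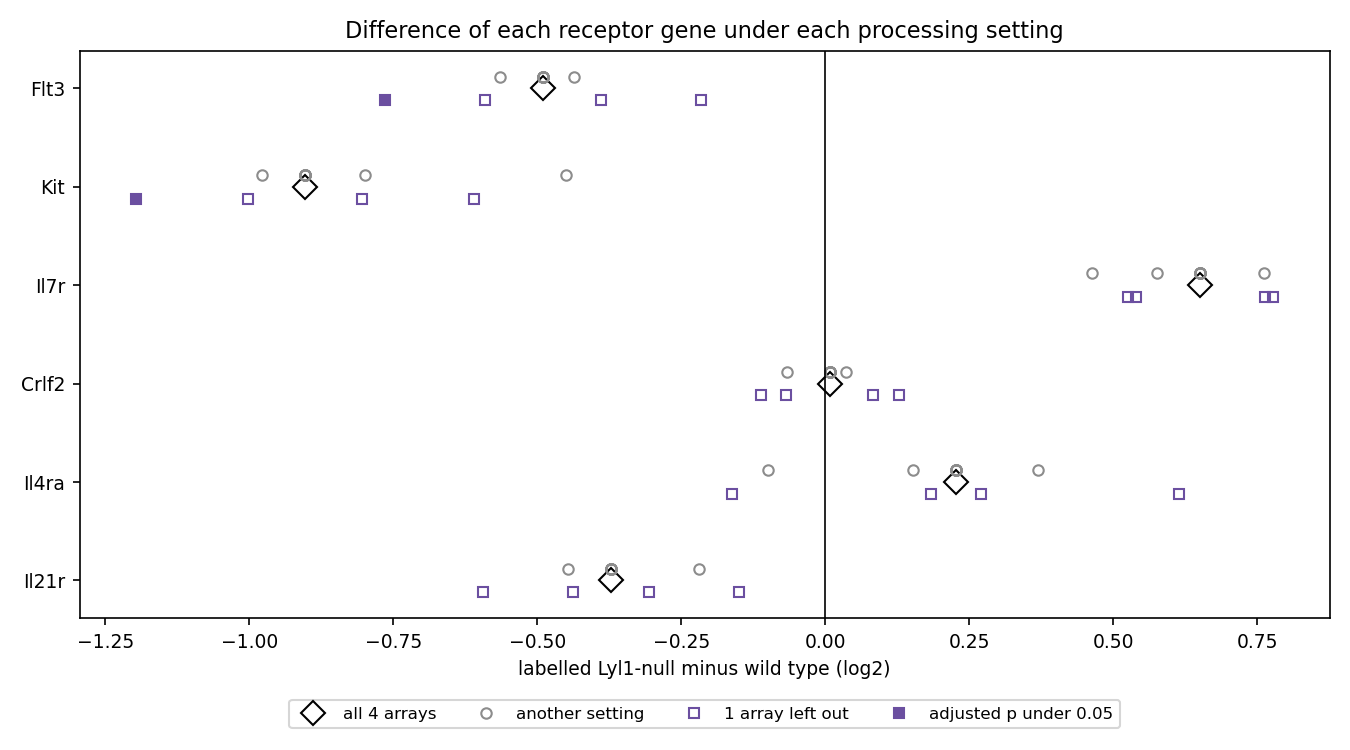
Difference of the 6 receptor genes (y axis), as the log2 value labelled Lyl1-null minus wild type (x axis). Diamonds are the fit with all 4 libraries, circles another setting and squares fits without 1 library. Filled symbols have an adjusted p under 0.05. Filled symbols appear for Flt3 (−0.76) and Kit (−1.20), both without replicate 1 labelled Lyl1-null.

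The genes most like Flt3, Kit and Il7r were found by the root mean square distance between 4 log2 values, each gene taken relative to its wild-type mean. They were sought among 10680 other tested genes, with RIKEN genes, predicted genes and similar provisional symbols left out. For Flt3 they were Cd37 (0.011), Ppp2r3d (0.022) and Cul7 (0.025), and 1619 genes lay within 0.2. For Kit they were Ncoa2 (0.022), Gse1 (0.039) and Dop1b (0.042), and 125 genes lay within 0.2. For Il7r they were Fkbp11 (0.017), Scn4b (0.072) and Hoxb5os (0.072), and 87 lay within 0.2. Cd37, a tetraspanin of leukocytes, was at −0.23 and −0.76 in replicates 1 and 2 labelled Lyl1-null. Ncoa2, a nuclear receptor coactivator, was at −0.64 and −1.20, and Fkbp11, a peptidyl-prolyl isomerase of the secretory pathway, at 0.75 and 0.52.

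Of the ligands, 9 of 10 listed genes were on the array and Il15 alone was tested. Il15 encodes interleukin-15, which signals through the common gamma chain. It read 7.36 and 7.22 in the libraries labelled Lyl1-null, against 8.62 and 8.52 in wild type, with no overlap. The difference was −1.28 (SE 0.16), with an adjusted p of 0.211. It was −1.21 with replicate 1 alone (adjusted p = 0.0748) and −1.35 with replicate 2 alone (adjusted p = 0.0100). Flt3l was not analysed here, and Kitl, Il7, Tslp, Il4, Il13, Il21, Il2 and Il9 were below the filter on average.

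Partner chains and related receptors had small differences in both directions. Of 9 listed genes 5 were tested, with 3 negative, 2 positive, a median of −0.17 and 0 past the threshold (0 also at an unadjusted p under 0.05). Il2ra, the interleukin-2 receptor alpha chain, read 6.12 and 6.18 in the libraries labelled Lyl1-null, against 5.89 and 5.84 in wild type (0.29, SE 0.16). Csf1r, the macrophage colony-stimulating factor receptor, was at −0.24 (SE 0.17), and at −0.32 and −0.16 in replicates 1 and 2 alone.

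Among the signalling genes, 19 of 21 were tested, with 15 negative, 4 positive and 0 past the threshold with all libraries (0 at an unadjusted p under 0.05). Their median was −0.16, beside −0.047 over all tested genes. It was −0.049 in replicate 1 labelled Lyl1-null and −0.26 in replicate 2, beside −0.0086 and −0.078 over all tested genes. Sos1, an exchange factor for Ras, read 9.15 and 9.05 in the libraries labelled Lyl1-null, against 9.44 and 9.56 in wild type (−0.40, SE 0.16). Pik3cd, the leukocyte PI3-kinase catalytic subunit, was at 0.40 (SE 0.16), at 0.33 and 0.46 in replicates 1 and 2 alone, and at −0.13 with the mean of its probe sets. With replicate 2 alone 3 of the 19 passed, all lower, where 14.8% of all genes were called and 10.8% were lower. These, named after their values were seen, were Stat5b (−1.45), the kinase gene Akt1 (−1.22) and Stat6 (−1.11), the STAT factor of interleukin-4, and in replicate 1 alone they were at −0.28, 0.038 and −0.0028.

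Among the negative regulators, 10 of 11 were tested, with 7 negative, 3 positive and 0 past the threshold (1, Sh2b3, at an unadjusted p under 0.05). Sh2b3, the adaptor also known as Lnk that restrains Kit and JAK2 signalling, read 7.91 and 7.91 in the libraries labelled Lyl1-null, against 8.39 and 8.47 in wild type. Its difference was −0.51 (SE 0.16), with an adjusted p of 0.644, and −0.32 with the mean of its probe sets. It was −0.51 in each library labelled Lyl1-null alone. Socs2, a suppressor of cytokine signalling, was at 0.60 (SE 0.24), from 0.85 in replicate 1 alone and 0.36 in replicate 2 alone. With replicate 2 alone 3 of the 10 passed, where 14.8% of all genes were called. Named after their values were seen, the STAT5 target Cish (−0.78) and the lipid phosphatase gene Inpp5d (−0.96) were called lower and Socs3 (0.79) higher.

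Genes known downstream of interleukin-7 or Flt3 signalling in early lymphoid cells had differences in both directions. All 10 were tested, with 6 positive, 4 negative, a median of 0.050 and 0 past the threshold (2 at an unadjusted p under 0.05, Rag2 and Vpreb1). The recombinase gene Rag2 read 6.85 and 6.90 in the libraries labelled Lyl1-null, against 6.12 and 6.17 in wild type (0.73, SE 0.16, adjusted p = 0.601). Vpreb1, a surrogate light chain gene, was at 0.56 (SE 0.17), and at 0.68 and 0.44 in replicates 1 and 2 alone. With replicate 2 alone Rag2 passed (0.75, adjusted p = 0.0331), the 1 gene of these 10 that did, where 14.8% of all genes were called. With replicate 1 alone it was at 0.71 (adjusted p = 0.353).

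Of 14 transcription factors known at Flt3, Kit or Il7r, all tested, 13 had a negative difference and Runx1 a positive one. Their median was −0.17, beside −0.047 over all tested genes and −0.085 with the filter at the 70th percentile. The share of all tested genes with a negative difference was not counted. Past the threshold were 0 (3 at an unadjusted p under 0.05 in limma, Gata2, Meis1 and Gfi1, beside 766 of all 11196 genes). Gata2, a GATA factor of early blood cells known to act at Kit, read 9.54 and 9.77 in the libraries labelled Lyl1-null, against 10.48 and 10.47 in wild type (−0.82, SE 0.17, adjusted p = 0.574). Meis1, a homeobox cofactor of Hoxa9, was at −0.75 (SE 0.16), and at −0.36 with the mean of its probe sets. With replicate 2 alone 3 of the 14 passed, where 14.8% of all genes were called. Gata2 (−0.70) and Meis1 (−0.76) were lower there, and with replicate 1 alone they were at −0.93 (adjusted p = 0.171) and −0.74 (adjusted p = 0.321). Runx1 passed in replicate 2 as higher (0.99), named after its value was seen, and in replicate 1 alone it was at −0.049.

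**Figure D4:**
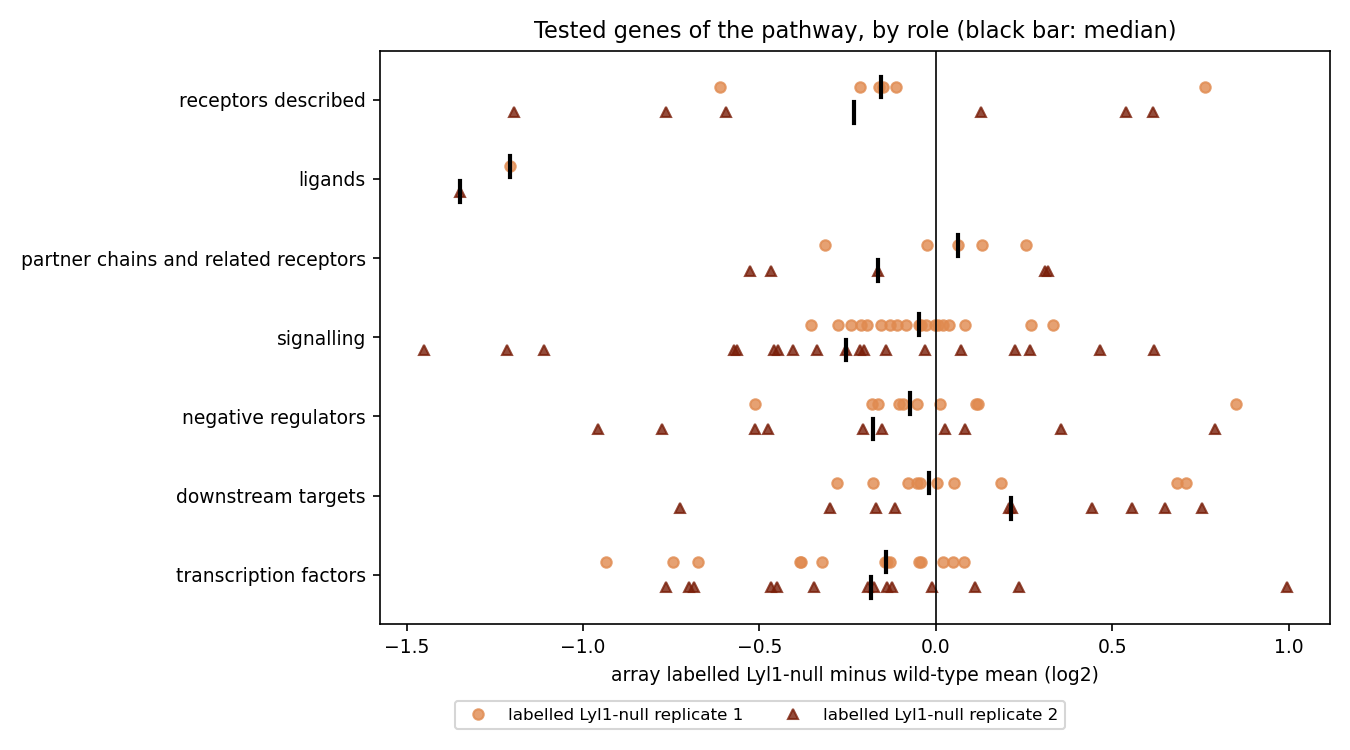
Difference of each library labelled Lyl1-null from the wild-type mean (x axis, log2) for each tested gene of the pathway, by role (y axis). Circles are replicate 1, triangles replicate 2 and black bars the medians. The signalling genes have a median of −0.049 in replicate 1 and −0.26 in replicate 2, where the lowest are Stat5b, Akt1 and Stat6.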

How the data were processed

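Amplified, biotin-labelled RNA of sorted LMPPs was measured on 4 arrays, 1 per sample. The authors deposited log2 values. RMA made them, per the submitters' processing notes, with no version or set of co-normalized arrays stated. Values were used as deposited. The number of arrays limits their precision.

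Of 45037 probe sets, 34945 had 1 gene symbol, 932 several and 9160 none, and 34741 matched a RefSeq gene (GRCm38.p6), with 0 symbols changed. Each gene was read from its probe set with the highest mean. The filter was the median of probe-set means (5.69), which 11196 genes and 18848 probe sets reached. These were tested in limma 3.58.1 (R 4.3.3; lmFit, eBayes, two-sided, Benjamini-Hochberg over all features, threshold 0.05). A fit without 1 array assumes that the lone array varies like the other group. Summed levels are sums of values turned back from log2. The script was tested on simulated data.

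Members and lists were chosen with earlier results of these data known. The named genes were the 7 receptors, Lyl1, Xist and Eif2s3y, and the 2 tested genes with the smallest p of each pathway list, plus the 3 genes most alike to Flt3, Kit and Il7r. Alternatives were no filter, a filter at the 70th percentile, the mean of probe sets, quantile normalization, median centring, a trended robust prior, array weights, a replicate block and each array left out.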

Additional observations from a re-analysis of the deposited data

How the results depend on the processing

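Over 13 alternatives to the gene fit, Kit, Flt3 and Il21r kept a negative and Il7r a positive difference. After quantile normalization Kit was at −0.80, Flt3 at −0.44 and Il7r at 0.76. Flt3 and Kit passed the threshold in 1 of them, without replicate 1 labelled Lyl1-null. Il7r, Il21r, Il4ra and Crlf2 passed in 0 of 13. Directions changed for Crlf2 with median centring (−0.067), without replicate 2 labelled Lyl1-null (−0.11) and without wild-type replicate 2 (−0.068), in both fits. They changed for Il4ra with the mean of probe sets (−0.10) and, in both fits, without replicate 2 labelled Lyl1-null (−0.16), for Pik3cd with the mean of probe sets (−0.13), and for the second Il7r probe set without replicate 1 labelled Lyl1-null (−0.17) or wild-type replicate 1 (−0.011). Without 1 library, differences ran from −0.11 to 0.13 for Crlf2, from −0.16 to 0.61 for Il4ra and from −0.17 to 0.72 for that Il7r probe set. The causes were not tested.

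The number of genes called was 1 with all libraries, 4 with no filter, 0 with the mean of probe sets, 2 with quantile normalization, 2 with median centring and 5 with array weights. The number of probe sets called was 2, against 1 with the stricter filter, 1 with median centring and 9 with array weights. Leaving out 1 library gave 1 to 1652 genes and 0 to 2456 probe sets, the highest without replicate 1 labelled Lyl1-null. Same-numbered libraries deviated from their group means with a correlation of −0.41 over 11196 genes. The replicate block called 3 genes and 3 probe sets, and a crossed replicate block, chosen after seeing the data, called 1 and 2. Neither block called a receptor gene. The median difference of all tested genes was −0.047, 0.040 after quantile normalization and −0.12 after median centring. It was 0.057 with no filter and −0.085 with the filter at the 70th percentile, so brighter genes lay lower in general. Signal near background limits the dim Kit and Il4ra probe sets.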
